A study of Homo sapiens with 6 samples.

Results

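Cadherins are calcium-dependent cell adhesion proteins. Classical cadherins bind the same or a similar cadherin on the neighbouring cell and are tied to the actin cytoskeleton inside the cell by catenins. Protocadherins, the largest branch of the superfamily, mostly lack the catenin-binding tail, and many of them are encoded side by side on human chromosome 5 in 3 clusters named alpha, beta and gamma, where each variable exon has its own promoter. In carcinomas, loss of E-cadherin (CDH1) and gain of N-cadherin (CDH2) is the best known cadherin switch.

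The genes described here are the rows of the deposited gene table whose symbol is CDH followed by a number, without CDH5, or starts with PCDH. There were 92 such rows of 20061, 22 of them CDH genes and 70 PCDH genes. The samples were HEYA8 cells, an established human ovarian cancer line whose source the submitters give as low grade serous ovarian carcinoma, grown in medium with puromycin and otherwise untreated. All cells carried a lentiviral short hairpin RNA (shRNA), either against luciferase, the negative control (shLuciferase, 3 samples), or against the transcription factor ETS1 (shETS1, 3 samples). The hairpins are not named in the labels, nor is their number. Whether replicates came from different cultures is not stated either, and the deposited p-values may therefore reflect technical spread alone. The question was which transcripts differ when ETS1 is lowered.

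Levels are FPKM (fragments mapped to a gene, scaled to its transcript length and to the library's total), 1 value per gene and group as combined by the authors, so no value or error per sample can be given. Depth is unknown from these values. ETS1 itself was at 41.4 FPKM in shLuciferase against 17.9 FPKM in shETS1. The authors' deposited table gave it q = 0.00964, where q is the p-value adjusted over all tested genes. HEYA8 cells had the epithelial keratins KRT8, KRT18 and KRT7 at high levels. In shLuciferase and shETS1, KRT8 was at 1913 and 1288 FPKM, KRT18 at 2044 and 1498 FPKM and KRT7 at 1187 and 910 FPKM. The other epithelial markers were low, KRT19 at 3.55 and 3.80 FPKM and EPCAM at 1.71 and 1.82 FPKM. Of 5 ovarian carcinoma lineage markers PAX8 was at 79.7 and 76.8 FPKM, WT1 at 3.58 and 3.13 FPKM and MUC16 at 0.000625 FPKM in shLuciferase and listed at 0 in shETS1. MSLN was at 17.9 and 26.5 FPKM and SOX17 at 1.15 and 2.38 FPKM, with p = 0.0309 and 0.00145 and q = 0.597 and 0.110 in the authors' deposited table. Leukocyte markers summed to 0.357 and 0.266 FPKM with 3 of 4 listed at 0 in both groups, and fibroblast markers to 0.103 and 0.134 FPKM with 2 of 4 at 0. Muscle markers summed to 0.0134 and 0.0155 FPKM with 2 of 3 at 0. Apart from CDH5, the endothelial markers found (CLDN5, KDR and VWF) were each under 1 FPKM. Of 5 neuronal markers TUBB3 was at 113 and 110 FPKM and RBFOX3 at 16.7 and 10.4 FPKM, RBFOX3 having q = 0.253 in the authors' deposited table. SYT1 was at 0.930 and 1.22 FPKM. MAP2, at 0.109 and 0.0992 FPKM, and SNAP25, at 0.00633 and 0.0226 FPKM, were low and not tested. The mesenchymal genes FN1 and SPARC were at 414.6 and 632.1 FPKM and at 134.7 and 151.9 FPKM. The mesenchymal gene VIM has no usable comparison, since the authors' deposited table marks the row as holding too much data, with 7171 FPKM in shLuciferase and 0 in shETS1. The part of any of these markers in the results was not tested. In bulk RNA, fewer cells of a type and less RNA per cell cannot be told apart.

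Most promoters of the clustered protocadherins share a short element known from earlier work, with a CGCT core that is bound by the insulator protein CTCF. It is shown first because nearly all clustered promoters examined held its core, those of expressed and of silent members alike. RefSeq promoter sequences (GRCh38.p14, 250 bases before the listed start, read in the direction of transcription) were found for 47 of the 57 clustered members and for 70 of all 92. The 6 clustered genes that the authors tested are given with 40 bases each, 5′ to 3′, the core in capitals:
PCDHB3, chr5:141100394-141100433, plus strand: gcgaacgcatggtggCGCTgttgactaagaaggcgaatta
PCDHB9, chr5:141187075-141187114, plus strand: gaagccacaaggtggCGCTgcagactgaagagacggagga
PCDHB14, chr5:141223264-141223303, plus strand: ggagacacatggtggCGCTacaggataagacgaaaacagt
PCDHGA10, chr5:141412932-141412971, plus strand: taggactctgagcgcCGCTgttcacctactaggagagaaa
PCDHGB2, chr5:141359922-141359961, plus strand: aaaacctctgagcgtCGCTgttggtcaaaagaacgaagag
PCDHGC3, chr5:141475881-141475920, plus strand: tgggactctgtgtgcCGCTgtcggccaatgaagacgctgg

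The next 4 genes were listed at 0 FPKM in both groups and have the element all the same. PCDHB1, the fifth such gene with a promoter, is not printed: it has the core, but 14 of the 28 bases around and including it were those commonest in the cluster, against 22 to 25 in these 4. For PCDHB5, which gave the 22, the printed stretch stops at the listed start, so fewer than 28 of its bases could be compared.
PCDHA8, chr5:140841131-140841170, plus strand: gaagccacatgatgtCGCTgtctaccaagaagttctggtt
PCDHA10, chr5:140855842-140855881, plus strand: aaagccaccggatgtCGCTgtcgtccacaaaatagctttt
PCDHB5, chr5:141135180-141135205, plus strand: taggacgcctggtggCGCTgcaggct
PCDHGB5, chr5:141397864-141397903, plus strand: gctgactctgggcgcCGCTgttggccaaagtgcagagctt

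The clusters differed from the other members in the strand and the place of the core, not in whether its letters occurred on either strand. Searched on either strand, CGCT was in 95.7% of both the 47 clustered promoters (45) and the 23 promoters of other members (22), and in 64.3% of the promoters of all 27305 genes in the RefSeq table. In the direction of transcription, CGCT occurred within the 250 bases in the same 45 clustered promoters, in 14 promoters of other members (60.9%) and in 47.9% of all promoters. Between 100 and 31 bases before the start the shares were 91.5%, 30.4% and 21.4%. The longer CGCTG, which contains CGCT, was in 83.0% of clustered promoters, 30.4% of the other members' and 24.4% of all promoters in that direction, and in 85.1%, 56.5% and 40.4% when either strand was searched. None of these shares was tested. PCDHA9 and PCDHB8 had no CGCT in this window. Where a promoter held several, the occurrence whose surroundings best matched its own cluster was taken. The cluster's commonest bases came from the occurrences nearest 60 bases before the start, so the place is partly fixed by the choice and is a description. That occurrence lay a median of 55 bases before the start in the alpha cluster, 62 in the beta cluster and 60 in the gamma cluster. PCDHGB2 stood farthest out, 199 bases before its listed start. Of the 28 bases around and including the CGCT, those commonest in the cluster numbered from 10 in PCDHGB7 to 27 in PCDHA4. They numbered 14 in PCDHAC1, PCDHAC2 and PCDHB1. A CGCT alone therefore does not show that a promoter has the whole element. All 5 clustered genes with a promoter that were listed at 0 in both groups held a CGCT. Since 45 of the 47 clustered promoters held one, its presence could not have separated silent from expressed members, and nothing is concluded from it.

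**Figure D1:**
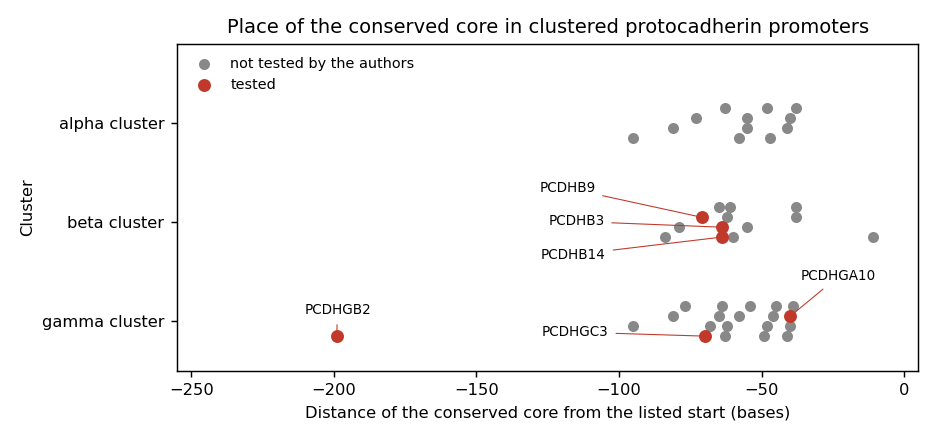
Distance of the chosen CGCT from the listed RefSeq start (horizontal axis, bases, negative upstream) for the 45 clustered protocadherin promoters with a CGCT. Promoters are drawn by cluster (vertical axis, where small offsets only separate points). Any CGCT counts here, also where the bases around it match the cluster poorly. Red points are the 6 genes tested by the authors and grey points the others. Tested and untested genes overlap in position, with PCDHGB2 alone at 199 bases upstream.

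HEYA8 cells had few of these rows at 1 FPKM or more. Of the 92 members 7 reached 1 FPKM in either group (7.61%), against 54.0% of all 20061 rows, and 17 were listed at 0 in both groups. The 92 rows cover 56 distinct loci. In 38 rows the locus is that of the whole alpha or gamma cluster, and the split of its level over many rows can lower the share. A group value of 0 is what the table lists and not proof of absence. PCDHGC3, CDH4 and CDH2 led in this order in both groups and together made up 76.2% of the members' summed FPKM in shLuciferase and 73.7% in shETS1. PCDH1 came next, followed by CDH24, PCDHGA10 and PCDHB9, also in this order in both groups. Which neighbours in that order differ beyond their spread could not be tested without values per sample.

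**Figure D2:**
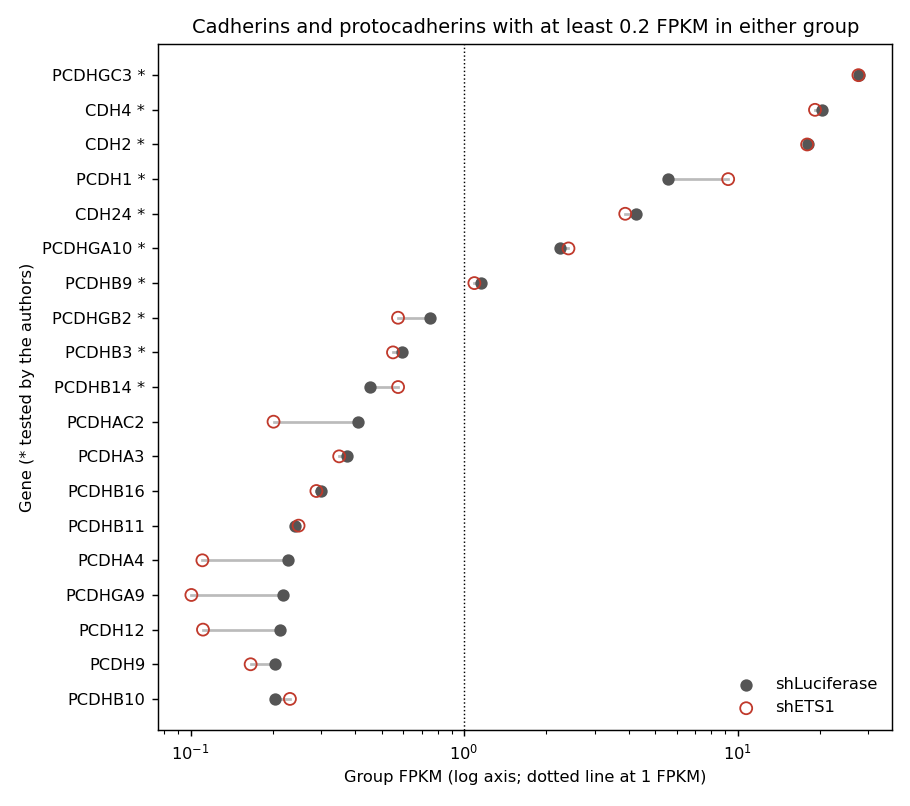
Group FPKM (horizontal log axis) of the members with at least 0.2 FPKM in either group, shLuciferase as filled grey points and shETS1 as open red circles joined by a line, ordered by the shLuciferase value, with asterisks on genes the authors tested and a dotted line at 1 FPKM. PCDHGC3, CDH4 and CDH2 lie at 17.9 to 27.8 FPKM with both points nearly on top of each other, and PCDH1 is the tested gene with the widest gap, 5.54 against 9.23 FPKM. PCDH11Y is not drawn. No error bars can be drawn because each point is 1 group value.

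No member was called. The cadherin CDH5, which the rule leaves out, was called and is described below. In the authors' Cuffdiff-format comparison 10 members had been tested and 0 passed a q-value of 0.05, where 0.812% of all 11952 tested genes passed. For 10 genes a count of 0 is near that share. At an unadjusted p of 0.05 there was 1 member, PCDH1, where 6.94% of all tested genes passed. At a q-value of 0.1 the count was again 0 members, where 1.26% of all tested genes passed. The 7 tested members whose mean reached 1 FPKM had a median log2 ratio of shETS1 to shLuciferase of -0.01, and 5 of 7 lay below 0. All 10676 tested genes at that level had a median of 0.02, with 47.4% below 0. The median size of the ratio, without its sign, was 0.09 for the 7 members and 0.18 for those genes.

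The classical type I cadherins were represented by N-cadherin and R-cadherin. CDH2, the N-cadherin of neural and mesenchymal cells, was at 18.1 FPKM in shLuciferase against 17.9 FPKM in shETS1, a log2 ratio of -0.01. CDH4, the R-cadherin first described in the retina, was at 20.4 and 19.2 FPKM, a log2 ratio of -0.09. The p-values of CDH2 and CDH4 in the authors' deposited table were 0.966 and 0.726. Both genes thus had nearly equal values in the 2 groups. Other genes show what size of difference the comparison could call. Among tested genes within 1.5-fold of the level of CDH2, those with a deposited p between 0.04 and 0.06 had a median change of 1.40-fold, and the smallest change called was 1.89-fold. The change of CDH2 was 1.01-fold and that of CDH4 1.06-fold.

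The epithelial members of this class were near or at 0. CDH1, the E-cadherin of epithelial junctions, was at 0.00572 FPKM in shLuciferase and listed at 0 in shETS1. CDH3, the P-cadherin of basal epithelia and a neighbour of CDH1 on chromosome 16, was at 0.0215 and 0.0242 FPKM, and CDH15, the M-cadherin of muscle, at 0.0364 and 0.0531 FPKM. None of the 3 was tested. Both groups thus had CDH2 at a clear level and CDH1 at or near 0.

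Among the 12 type II cadherins, CDH24, whose product binds catenins like the other classical cadherins, was the only one tested. It was at 4.26 FPKM in shLuciferase against 3.88 FPKM in shETS1, a log2 ratio of -0.13 with a p-value of 0.612 in the authors' deposited table. Genes near this level with a deposited p between 0.04 and 0.06 had a median change of 1.45-fold, more than the change of CDH24. The highest of the other 11 was CDH12 at 0.0462 and 0.0599 FPKM. CDH8, CDH9, CDH11, CDH18 and CDH19 were listed at 0 in both groups, CDH11 being the osteoblast cadherin of mesenchymal cells. CDH6, known from kidney and ovarian carcinomas, was at 0.0113 and 0.00639 FPKM.

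The remaining CDH genes were not expressed at a testable level. CDH13, the T-cadherin that is held in the membrane by a lipid anchor, and the kidney cadherin CDH16 were listed at 0 in both groups. CDH17, the liver-intestine cadherin, was at 0.00369 and 0.00327 FPKM, and CDH26 at 0.00522 and 0.0303 FPKM. CDH23, which with PCDH15 forms the tip links of inner ear hair cells, was at 0.0851 and 0.0675 FPKM.

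CDH5, the VE-cadherin left out by the rule, gives a contrast at a similar control level. It was at 17.6 FPKM in shLuciferase against 5.00 FPKM in shETS1, and q = 0.00964 in the authors' deposited table, beside 18.1 and 17.9 FPKM for CDH2. CDH5 was thus called while CDH2 was not, and the difference between the changes of these genes was not tested.

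**Figure D3:**
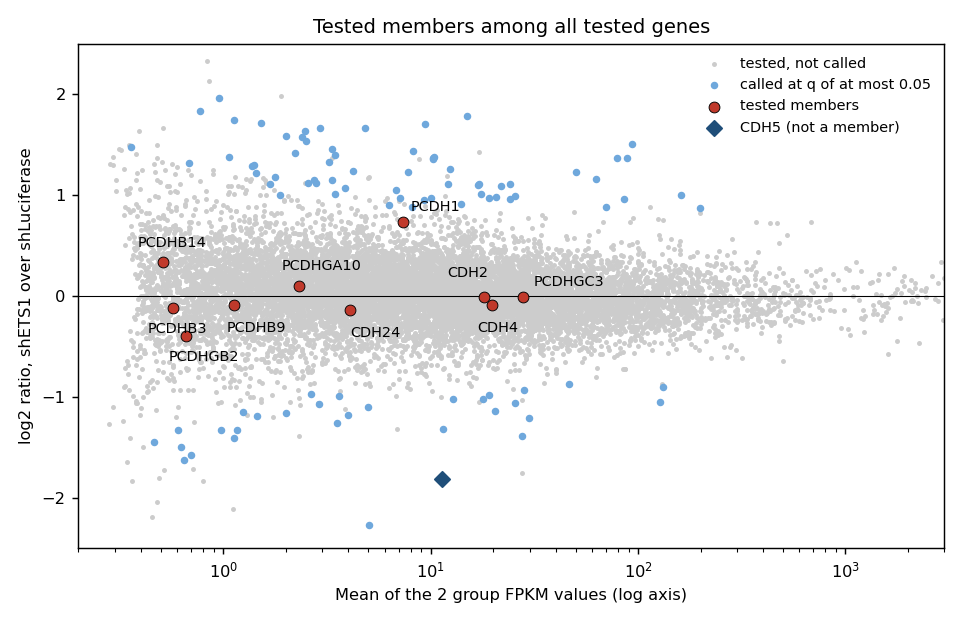
Log2 ratio of shETS1 to shLuciferase (vertical axis) against the mean of the 2 group FPKM values (horizontal log axis) for the genes tested by the authors, grey where not called and light blue where called at a q-value of 0.05, with the few genes outside the axes or without a finite ratio not drawn. The 10 tested members are red and labelled, and CDH5 is the dark diamond at -1.82. All members but PCDH1, at 0.74, lie between -0.39 and 0.34.

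PCDH1 had the widest difference of the 10 tested members. Some untested members near 0 had larger ratios, such as CDH26 at a log2 ratio of 2.53. PCDH1, a protocadherin of the delta subfamily, is known from airway epithelium. It was at 5.54 FPKM in shLuciferase against 9.23 FPKM in shETS1, a 1.67-fold difference with a log2 ratio of 0.74. In the authors' deposited table its p-value was 0.00345 and its q-value 0.179, so it was not called. In all, 231 tested genes (1.93%) had a p-value that small or smaller. Among the genes within 1.5-fold of its level the smallest called change was 1.85-fold. The transcript of PCDH1 is rich in GC at 60.2%, and with a trend on transcript GC content removed its log2 ratio was 0.86. Its locus (chromosome 5, 141232673 to 141257944, hg19) overlaps no other row of the table.

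Stretches before a listed start of PCDH1, CDH2 and CDH4 are printed because ETS factors bind a GGAA core and ETS1 is the factor that was lowered. The 150 bases before the first RefSeq start listed for each gene follow (GRCh38.p14, 5′ to 3′ in the direction of transcription), with GGAA and its reverse complement TTCC in capitals:
PCDH1, chr5:141869628-141869777, minus strand: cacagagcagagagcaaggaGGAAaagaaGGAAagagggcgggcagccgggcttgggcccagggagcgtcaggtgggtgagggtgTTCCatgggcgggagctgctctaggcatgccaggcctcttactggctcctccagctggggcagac
CDH2, chr18:28177131-28177280, minus strand: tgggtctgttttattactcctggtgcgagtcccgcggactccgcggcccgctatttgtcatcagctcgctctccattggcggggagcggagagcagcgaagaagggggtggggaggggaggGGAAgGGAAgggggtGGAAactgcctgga
CDH4, chr20:61499271-61499420, plus strand: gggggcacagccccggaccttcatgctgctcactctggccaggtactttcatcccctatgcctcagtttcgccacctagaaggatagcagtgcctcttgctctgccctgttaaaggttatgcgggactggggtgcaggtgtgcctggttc

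PCDH1 and CDH2 each had 3 such cores in this stretch, and CDH4 had 0. Over the 250 bases PCDH1 and CDH2 had 4 each and CDH4 had 1. This 4-base core is common: on either strand it was in 92.8% of all promoters of the table. The longer CCGGAA, which contains it, was in 14.8% of all promoters on either strand, in 2 of the 9 tested members with a promoter, and in none of PCDH1, CDH2 and CDH4. A match is a run of letters and shows no binding, and the start used in HEYA8 cells is not known from these data. Set against the tested beta genes, which are placed in both genome builds, the listed start of PCDH1 lies inside its deposited locus and not at its edge. Whether the listed starts of CDH2 and CDH4 lie at the beginning of the deposited locus or inside the gene was not checked. Other starts of these genes were not searched, so the counts, the 0 of CDH4 included, hold for the printed start only.

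The other protocadherins outside the clusters were low. Of 13 genes PCDH1 alone was tested, 4 were listed at 0 in both groups (PCDH8, PCDH10, PCDH17 and PCDH20), and the rest were untested. PCDH12, an endothelial protocadherin encoded near PCDH1 on the same chromosome, was at 0.211 and 0.111 FPKM. PCDH9 was at 0.204 and 0.166 FPKM, PCDH18 at 0.145 and 0.0725 FPKM, PCDH15 at 0.0823 and 0.105 FPKM, PCDH7 at 0.0496 and 0.0477 FPKM and PCDH19 at 0.0103 and 0.0134 FPKM. PCDH11X and PCDH11Y are near-identical copies on X and Y, so their rows are uncertain and are counted without values.

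**Figure D4:**
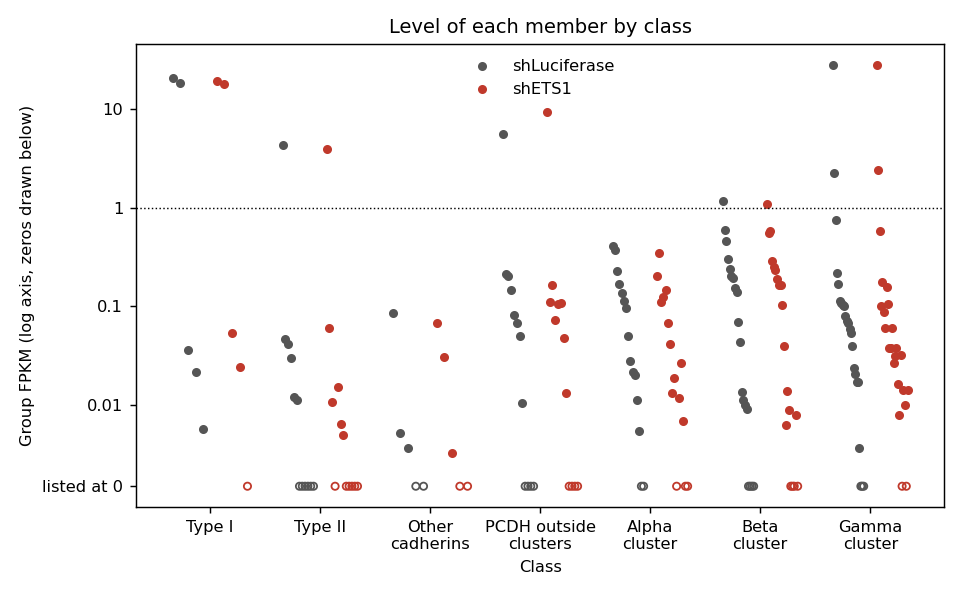
Group FPKM of each member (vertical log axis, with genes listed at 0 drawn as open circles below the axis break label) by class (horizontal axis), shLuciferase in grey and shETS1 in red, sorted by level within a class in shLuciferase, with a dotted line at 1 FPKM. Each class has at most 2 genes above 1 FPKM, and the alpha cluster and the other cadherins have none. PCDH11Y is not drawn.

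The gamma cluster held the most abundant member. PCDHGC3, a C-type gamma protocadherin, was at 27.8 FPKM in shLuciferase against 27.6 FPKM in shETS1, a log2 ratio of -0.01 with a p-value of 0.982 in the authors' deposited table. PCDHGA10 was at 2.25 and 2.41 FPKM and PCDHGB2 at 0.752 and 0.573 FPKM, with p-values of 0.909 and 0.812 in the authors' deposited table. Of the other 20 gamma rows PCDHGA9 was highest in shLuciferase, at 0.218 and 0.101 FPKM, and PCDHGC5 in shETS1. Of the C-type genes, PCDHGC4 was at 0.0537 and 0.0312 FPKM and PCDHGC5 at 0.170 and 0.175 FPKM. PCDHGC3 thus made up 86.7% of the summed gamma FPKM in shLuciferase and 87.4% in shETS1.

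All 23 gamma rows share 1 deposited locus (chromosome 5, 140710252 to 140892548, hg19), because gamma transcripts join their own first exon to the same 3 constant exons. How much of the constant part was credited to each row depends on the authors' software, so the split between gamma rows is uncertain and their sum is the firmer value. The sum was 32.1 FPKM in shLuciferase against 31.6 FPKM in shETS1, a log2 ratio of -0.02. The tested gamma rows had a larger error in the deposited comparison than most tested genes near their levels. Whether this comes from the shared locus was not tested. The log2 ratio divided by the deposited test statistic, a measure of the error the authors' software assigned, was 0.63 for PCDHGC3, 1.46 for PCDHGA10 and 2.60 for PCDHGB2. Tested genes within 1.5-fold of these levels had medians of 0.43, 0.51 and 0.63. For CDH2 it was 0.42 beside a median of 0.44, and for PCDH1 0.45 beside 0.46. The sources used here do not define the statistic, so these figures are only compared with each other.

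Every single row of the alpha cluster was below 1 FPKM in both groups, though the sum over its rows was above 1 FPKM in both. None of its 15 rows was tested, and the highest in shLuciferase, PCDHAC2, was at 0.408 FPKM in shLuciferase against 0.201 FPKM in shETS1. PCDHA3, the highest in shETS1, was at 0.374 and 0.349 FPKM and PCDHA4 at 0.226 and 0.110 FPKM. Summed over the cluster the level was 1.66 FPKM in shLuciferase against 1.11 FPKM in shETS1, a log2 ratio of -0.57. Of the 12 alpha rows above 0 in both groups 9 had the lower value in shETS1 (75.0%), against 1613 of 3554 untested rows of the table at the same levels (45.4%). These rows share 1 locus (chromosome 5, 140165876 to 140391929, hg19) and the constant exons of the alpha cluster, so they are not separate measurements, and no test covers the sum.

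Beta protocadherins are encoded by single exons without a shared constant part, and each has a locus of its own. Of 19 rows 3 were tested. PCDHB9 was at 1.16 FPKM in shLuciferase against 1.09 FPKM in shETS1, PCDHB3 at 0.595 and 0.549 FPKM and PCDHB14 at 0.453 and 0.573 FPKM. The p-values of PCDHB9, PCDHB3 and PCDHB14 in the authors' deposited table were 0.771, 0.744 and 0.345. Near the levels of PCDHB3 and PCDHB14 the smallest called change was 2.49-fold, so smaller differences were not called at such levels in this table. PCDHB16 at 0.299 and 0.288 FPKM, PCDHB11 at 0.240 and 0.248 FPKM and PCDHB10 at 0.203 and 0.231 FPKM followed, untested. The sum over the beta cluster was 3.59 and 3.67 FPKM, a log2 ratio of 0.03. Beta genes are similar in sequence to each other, so reads may have been shared between rows.

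The genes that cadherins work with were counted on lists of partners. Of 17 catenins and adherens junction partners 12 were tested, and 0 passed a q-value of 0.05, where 0.812% of all tested genes passed. For lists of this size a count of 0 is near that share. CTNNA1, the alpha-catenin that links cadherin complexes to actin, was at 150 and 127 FPKM in shLuciferase and shETS1, and beta-catenin (CTNNB1) at 105 and 98.0 FPKM. CTNND1, the p120 catenin that keeps cadherins at the membrane, was at 18.1 and 14.3 FPKM. The nectin PVRL2 was at 73.1 and 79.1 FPKM. PVRL1, another nectin, was at 8.69 and 5.72 FPKM, with p = 0.0393 and q = 0.665 in the authors' deposited table. JUP, the gamma-catenin of desmosomes, was at 0.0315 and 0.0385 FPKM and not tested. The median log2 ratio of the 12 was -0.13.

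Of 13 repressors and regulators of cadherin genes 10 were tested and 0 were called, where 0.812% of all tested genes were. The median log2 ratio of the 10 was 0.11. TWIST2 was the most abundant at 113 and 115 FPKM, followed by TCF3, which encodes E proteins that can repress CDH1, at 46.1 and 38.9 FPKM. TWIST1 was at 17.6 FPKM in both groups. SNAI2, the repressor Slug, was at 4.79 and 8.56 FPKM and TCF4 at 1.74 and 2.68 FPKM. Their p-values were 0.00145 and 0.0168 and their q-values 0.110 and 0.455 in the authors' deposited table. The epithelial regulators GRHL2, OVOL1 and OVOL2 had 0 FPKM in both groups.

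Of 9 tested sheddases and gamma-secretase subunits, which cut cadherins at the membrane, 0 were called, where 0.812% of all tested genes were. The median log2 ratio of the 9 was 0.17. ADAM15 was at 107 and 64.9 FPKM, with p = 0.00320 and q = 0.172 in the authors' deposited table. The gamma-secretase subunits PSENEN and APH1A were at 104 and 98.9 FPKM and at 74.7 and 75.9 FPKM, and the main cadherin sheddase ADAM10 at 5.04 and 5.71 FPKM.

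Of 13 tested regulators of the clustered protocadherin promoters 0 were called and 0 had a deposited p of at most 0.05. Over all tested genes these shares were 0.812% and 6.94%, so counts of 0 among 13 genes are near them. The median log2 ratio of the 13 was 0.07. CTCF, the protein that binds the CGCT element printed above, was at 21.03 and 23.09 FPKM, and the cohesin subunit RAD21 at 58.6 and 62.5 FPKM. DNMT1, the maintenance DNA methyltransferase, was at 75.3 and 68.5 FPKM. SMCHD1, a silencer of the clusters, was at 1.96 and 2.28 FPKM.

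Of 18 other genes of the cadherin superfamily 8 were tested and 0 were called, again with 0 at a p of at most 0.05. The shares over all tested genes were 0.812% and 6.94%. CLSTN1, a calsyntenin, was at 88.4 and 83.0 FPKM, the giant cadherin FAT1 at 13.9 and 14.5 FPKM and CLSTN3 at 5.60 and 4.43 FPKM. The median log2 ratio of the 4 tested genes whose mean reached 1 FPKM was -0.02.

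**Figure D5:**
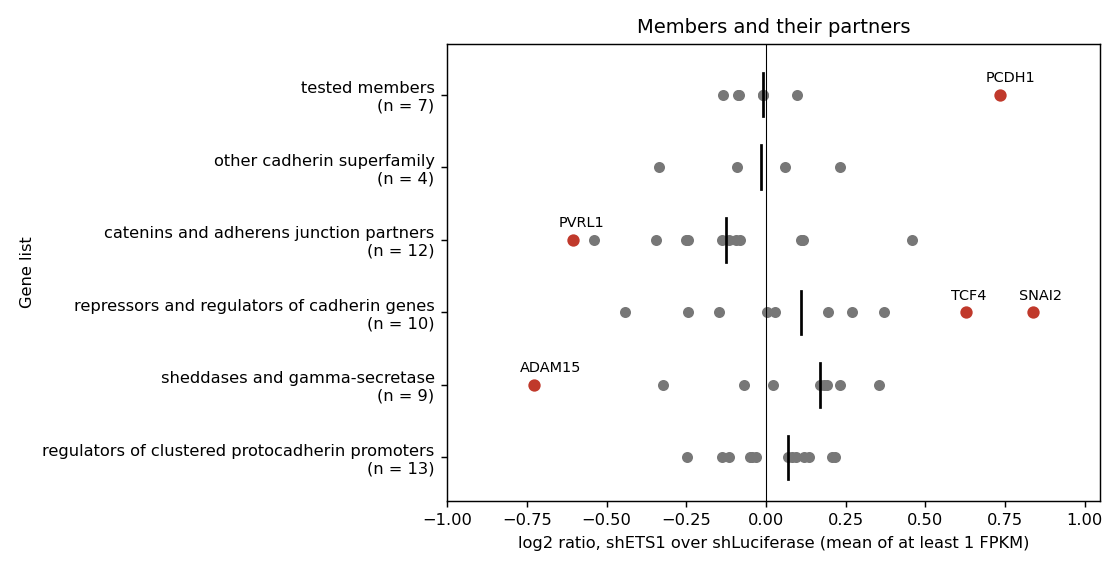
Log2 ratio of shETS1 to shLuciferase (horizontal axis) for tested genes with a mean of at least 1 FPKM, by list (vertical axis, number of genes in parentheses). Each point is a gene, red and labelled where the deposited p-value is at most 0.05, and black bars are medians. PCDH1 at 0.74 stands apart from the other 6 members, and no gene shown passed a q-value of 0.05.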

How the data were processed

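Polyadenylated RNA of 6 samples was copied with random hexamers and sheared, per the labels' protocols, which describe no strand-marking step. The submitters' processing notes name hg19, Cufflinks 2.1.1, SAMtools 0.1.18, TopHat2 2.0.7 and Bowtie2 2.0.6 without their roles. Annotation and scaling between groups: not given in the sources used here. The deposited FPKM values are 1 per gene and group, per the file headers. The deposited p-values, q-values and test statistic (a score) are the authors' own, per the file headers, and p and q are read only in rows marked as tested. Log2 ratios were computed from the FPKM values with no pseudocount (Python 3.11.15, pandas 2.3.3). The limma or edgeR fit planned for values per sample did not apply.

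A gene was called at a q-value of at most 0.05. Members and lists were chosen with earlier results of these data known. Named genes are ETS1, members with at least 1 FPKM or a p of at most 0.05, the 2 members nearest below 1 FPKM, and on each of the 5 lists of partner and related genes the 3 most abundant genes in shLuciferase and those with such a p. The marker lists are outside this rule. Other members and the further list genes were named after their values were seen, to cover each class. Promoters are from RefSeq (GRCh38.p14); deposited loci are hg19, with 1 added to the start. Transcript GC content came from GENCODE 29 by symbol, for 90.7% of tested genes whose mean reached 1 FPKM and for all 10 tested members. GC and motif code was tested on simulated data.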

Additional observations from a re-analysis of the deposited data

How the results depend on the processing

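With an unadjusted p of at most 0.05 in place of the q-value, 1 member (PCDH1) passed. At a q-value of 0.1, where 1.26% of tested genes passed, and without rows of shared loci, 0 passed. The median log2 ratio of the members ran from -0.09 with no filter on level to 0.02 with the GC trend removed, within 0.1 of the -0.01 reported. Of 28 single-gene alternatives 25 moved the ratio by less than 0.1, and 3 moved it by more, each with the GC trend removed: CDH4 to 0.02, CDH24 to 0.01 and PCDH1 to 0.86. PCDHGC3 also changed sign there, to 0.08. No paired analysis was possible because the table holds 1 value per group, and no replicate could be left out for the same reason.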

Other observations

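Rows of 4 protocadherin pseudogenes (PCDHB17, PCDHB18, PCDHB19P and PCDHGB8P) give levels to set the silent members against. The highest value among them was 0.0141 FPKM, for PCDHGB8P in shETS1, while it was listed at 0 in shLuciferase. PCDHB18 was at 0.0135 and 0.00620 FPKM in shLuciferase and shETS1, and PCDHB17 was listed at 0 in both. Of the other 88 members 27 were at or under 0.0141 FPKM in both groups, CDH1 and CDH6 among them, and 61 were above it in at least 1 group.

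Of the 66 members above 0 in both groups 40 had the lower value in shETS1 (60.6%), against 46.6% of all 15777 such rows. Most of these members were untested and 31 of them share the locus of the alpha or gamma cluster, so the share is given as a description.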
